A study of Mus musculus with 6 samples.

Results

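The genes described here act in S phase, when DNA is copied, and in mitosis, when the copies are parted. The list holds 39 genes, 15 of DNA replication and 24 of mitosis. It was taken as given and not picked by a rule on measured values, but earlier results of these data were known when it was chosen. A gene was read from the array rows whose platform annotation names that gene alone, and a gene with several rows was averaged. On that rule 38 of the 39 genes were measured, out of 19935 genes in all. The exception was the mitotic cyclin gene Ccnb1, whose expression was not analysed here and which enters only the promoter counts. RNA of CD4+CD62L- T cells sorted from mouse lymph nodes, which the labels call resting and untreated, was hybridised to 6 Affymetrix MoGene 1.0 ST arrays. The 3 Dicer WT samples came from mice with Dicer lox/lox alleles that were negative for CD4Cre. The 3 Dicer KO samples came from mice with the same Dicer lox/lox alleles that were positive for CD4Cre, so the Cre recombinase, and not the floxed allele, sets the genotypes apart. Both genotypes have 3 biological replicates, and the labels give no ages. The Cd4 promoter becomes active in developing T cells of the thymus, so deletion takes place there and not only in mature CD4 T cells. The comparison asks whether transcripts of the division machinery differ between the genotypes. The deposited log2 values come from a table in which the median of a row over the 6 arrays is 0. A value therefore says how far an array lies from the middle of the 6 for that gene, and whether a gene is above background cannot be read from it. The middle arrays of a row are mirror images around 0 by construction.

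A resting T cell carries little of this machinery, and T cell activation switches it on in order. Replication genes, such as those of the MCM helicase that unwinds DNA, are transcribed around the start of S phase, largely by E2F transcription factors released from the retinoblastoma protein. Mitotic genes peak later, and many of them are held silent in resting cells by the DREAM complex, which binds a promoter element called the cell cycle homology region (CHR), and are activated there in G2 by the MuvB complex with B-MYB and FOXM1. Dicer cuts microRNA precursors into mature microRNAs, several of which are known to target cell cycle transcripts.

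The list joins genes that differ in these promoter elements, and 6 promoters are shown to let a reader see them. They belong, within each class, to the genes of lowest p for the difference between genotypes and to the gene whose difference was nearest 0, among genes with 1 promoter in the RefSeq table of GRCm38.p6. Each run covers 250 bases before to 50 after the start site, 5′ to 3′ on the gene's strand. Capitals mark the E2F motifs TTTCCCGC, TTTGGCGC and TTTCGCGC, the CHR motifs TTTGAA and TTCGAA and the CCAAT box CCAAT, all searched on both strands. TTCGAA reads the same on both strands and was counted once per place, and motifs may overlap, as 2 E2F motifs do in Mcm6. The replication genes are Pcna (chr2:132253131-132253430, minus strand), Mcm3 (chr1:20820263-20820562, minus strand) and Mcm6 (chr1:128359656-128359955, minus strand). The mitotic genes are Kif11 (chr19:37376132-37376431, plus strand), Top2a (chr11:99024140-99024439, minus strand) and Ube2c (chr2:164769679-164769978, plus strand).
Pcna: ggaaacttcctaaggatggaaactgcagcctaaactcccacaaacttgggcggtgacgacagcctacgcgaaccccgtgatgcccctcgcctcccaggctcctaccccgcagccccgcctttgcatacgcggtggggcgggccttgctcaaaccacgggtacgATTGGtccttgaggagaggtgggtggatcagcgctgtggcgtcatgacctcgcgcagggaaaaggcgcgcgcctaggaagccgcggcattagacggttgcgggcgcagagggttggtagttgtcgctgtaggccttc
Mcm3: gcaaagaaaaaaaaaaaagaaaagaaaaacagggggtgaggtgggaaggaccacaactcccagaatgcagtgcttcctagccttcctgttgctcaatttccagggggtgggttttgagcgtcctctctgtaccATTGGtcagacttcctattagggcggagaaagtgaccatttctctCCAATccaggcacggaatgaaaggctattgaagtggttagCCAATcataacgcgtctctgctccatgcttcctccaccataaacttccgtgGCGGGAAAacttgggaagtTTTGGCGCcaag
Mcm6: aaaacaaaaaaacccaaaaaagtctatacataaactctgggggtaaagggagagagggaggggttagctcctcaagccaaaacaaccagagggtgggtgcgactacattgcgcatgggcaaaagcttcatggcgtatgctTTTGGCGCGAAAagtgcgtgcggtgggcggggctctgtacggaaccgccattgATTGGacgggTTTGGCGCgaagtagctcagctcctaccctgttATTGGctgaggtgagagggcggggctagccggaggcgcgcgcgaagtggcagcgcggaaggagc
Kif11: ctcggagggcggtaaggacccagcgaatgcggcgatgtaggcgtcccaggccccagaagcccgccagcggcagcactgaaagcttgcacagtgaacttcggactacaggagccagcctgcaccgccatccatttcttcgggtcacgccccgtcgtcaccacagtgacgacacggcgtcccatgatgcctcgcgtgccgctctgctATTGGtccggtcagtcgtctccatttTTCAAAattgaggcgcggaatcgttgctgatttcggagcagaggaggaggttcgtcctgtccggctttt
Top2a: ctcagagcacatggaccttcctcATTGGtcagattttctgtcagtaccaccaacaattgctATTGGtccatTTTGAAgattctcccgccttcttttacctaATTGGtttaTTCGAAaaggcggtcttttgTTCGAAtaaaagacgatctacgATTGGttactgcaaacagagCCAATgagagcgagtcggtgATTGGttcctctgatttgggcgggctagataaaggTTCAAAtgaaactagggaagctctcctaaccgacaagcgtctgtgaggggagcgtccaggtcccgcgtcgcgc
Ube2c: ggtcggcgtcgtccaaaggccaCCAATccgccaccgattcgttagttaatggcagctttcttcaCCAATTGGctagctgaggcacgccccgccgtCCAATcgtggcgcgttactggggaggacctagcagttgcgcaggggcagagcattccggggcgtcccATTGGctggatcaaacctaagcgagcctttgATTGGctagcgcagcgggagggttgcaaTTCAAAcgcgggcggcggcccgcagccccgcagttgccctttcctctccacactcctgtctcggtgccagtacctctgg
These windows lie around annotated start sites and say nothing of which start site the T cells used.

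An E2F motif was found for 6 of the 13 replication genes with a promoter in the table (46.2%) and for 2 of 20 mitotic genes (10.0%). Over all 27025 genes of the table the share was 2.12%. A CHR motif was found for 15 of the 20 mitotic genes (75%) and 2 of the 13 replication genes (15.4%), against 21.7% of all genes. The CCAAT box was found for 17 mitotic and 9 replication genes, or 85.0% and 69.2%, against 41.1% of all genes. Of the mitotic CHR matches, 16 of 22 lay within 100 bases of the start site. They ranged from -188 to 40, with a median position of -26, where a site in overlapping windows of a gene was counted once. The E2F matches of the replication genes had a similar range, from -185 to 38, but a median position of -110, and 4 of 11 lay within 100 bases. The window of Pcna held neither an E2F nor a CHR match of these letters, which says only that these letters are not in it. Promoters of Mcm4, Gins2, Ccna2, Aurkb, Kif20a and Tpx2 were not analysed here.

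**Figure D1:**
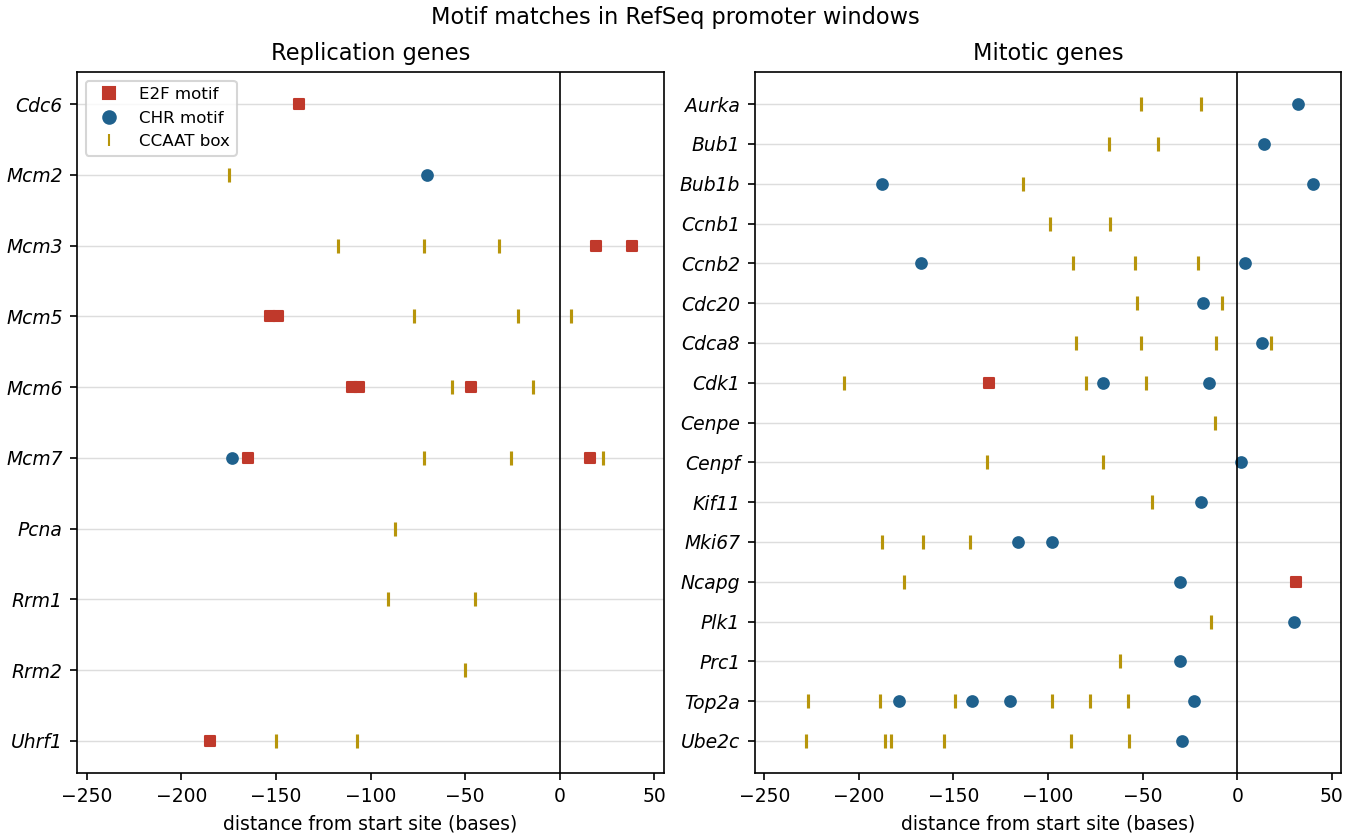
Matches to E2F motifs (squares), CHR motifs (circles) and the CCAAT box (ticks) are plotted by distance from the annotated start site, in bases, for the 10 replication and 17 mitotic genes with at least 1 match. For Mcm7, Prc1 and Uhrf1, which have several windows, the window with the higher genome start is drawn. E2F matches sit mostly in the replication panel and CHR matches mostly in the mitotic panel, where 16 of 22 lie within 100 bases of the start site.

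Transcripts of the division machinery were highest on the same array, Dicer KO 3. It held the highest value of the 6 arrays for 36 of the 38 genes, namely 13 of 15 replication and 23 of 23 mitotic genes, whereas over all 19935 genes it was highest for 18.6%. The exceptions were Mcm6, highest on Dicer WT 2, and Gins2, highest on Dicer KO 1. Dicer KO 2 came next for 24 of the 38 genes (63.2%, against 17.4% of all genes). Dicer KO 1 did not stand above all WT arrays as a rule, since it exceeded Dicer WT 2 for 19 of the 38, beside 9250 of all 19935 genes. Its medians, given next, lay above those of Dicer WT 1 and Dicer WT 3 in both classes. For the 23 mitotic genes the WT arrays had medians of -0.10, -0.0055 and -0.12, in replicate order, and the KO arrays 0.0048, 0.11 and 0.63. For the 15 replication genes the WT arrays had medians of -0.11, 0.0052 and -0.14, and the KO arrays -0.056, 0.081 and 0.36. Thus the medians of the Dicer WT arrays lay closer together than those of the Dicer KO arrays, with 1 KO median near the WT medians and 1 far above them. Single genes still varied among the WT arrays, with a median SD of 0.11 over the 38 genes, against 0.076 over all genes.

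**Figure D2:**
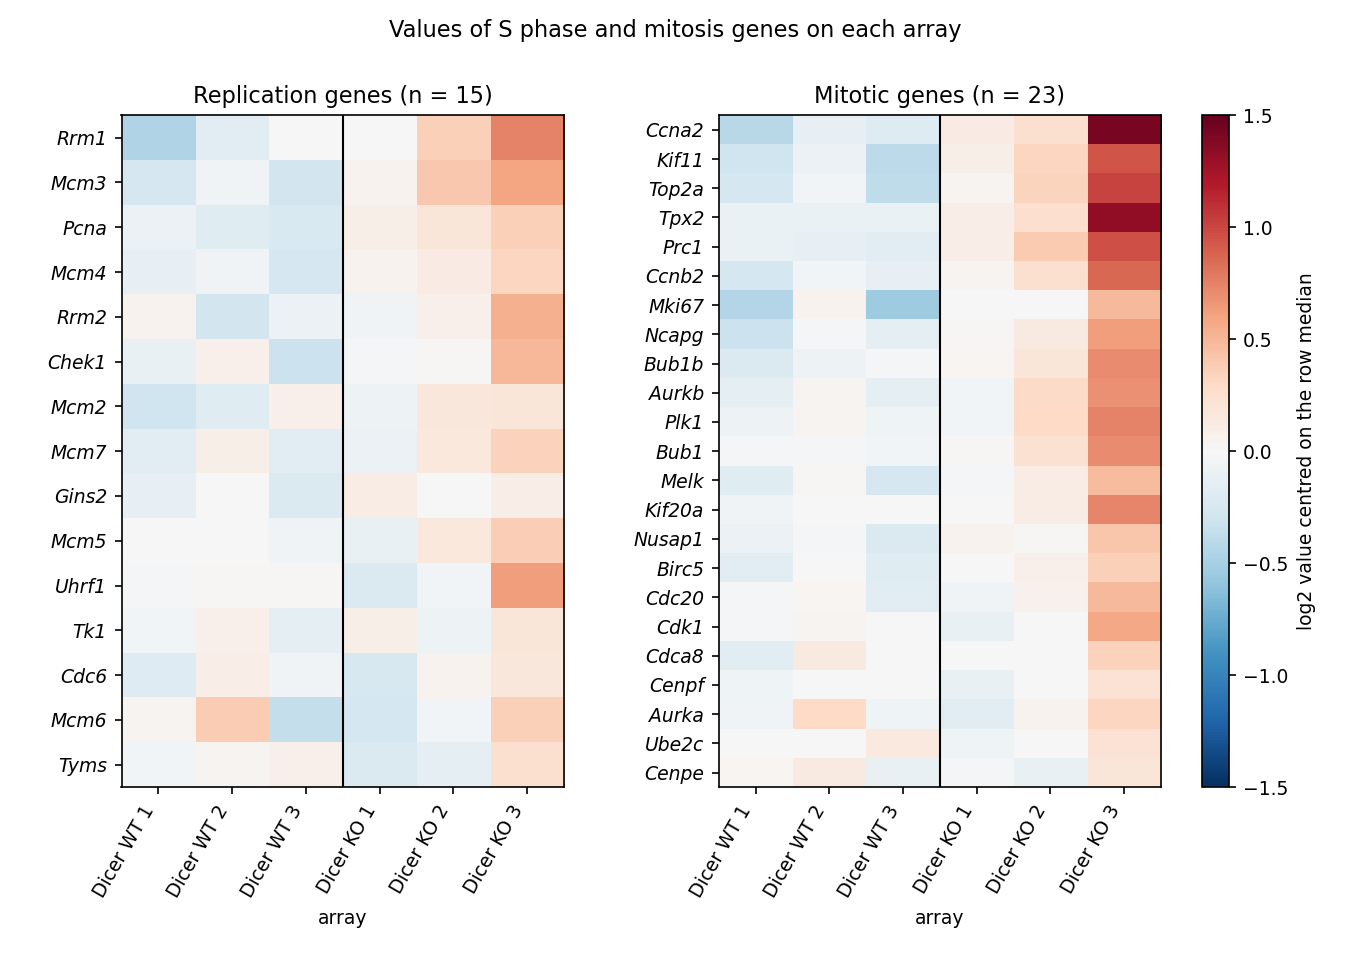
Each cell is the log2 value of a gene (rows, ordered by the difference between genotypes) on an array (columns), centred on the median of the 6 arrays. Colour runs from -1.5 (blue) to 1.5 (red), and the vertical line parts Dicer WT from Dicer KO. The column of Dicer KO 3 is the reddest for 36 of the 38 genes.

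Measured over the 3 arrays of each genotype, the genes leaned towards Dicer KO but nearly all missed the test. The difference, Dicer KO minus Dicer WT, was above 0 for 13 of 15 replication and 22 of 23 mitotic genes, with medians of 0.22 and 0.35 on the log2 scale. Over all genes the median difference was -0.011. One gene, Pcna, passed an adjusted p of 0.05 in limma, upward, and 0 of the 38 passed downward. Of all genes tested, 5.94% passed upward, 2.79% downward and 8.73% in either direction. The member count of 1 of 38 was below the upward share, but with 1 array left out it ranged from 0 to 5. The share is not matched for signal level, which is given by class below. At an unadjusted p under 0.05 there were 5 replication and 11 mitotic genes, all upward, where 12.1% of all genes were below it upward. The KO arrays lay wholly above the WT arrays for 3 replication and 11 mitotic genes, where 13.5% of all genes did so. For the mitotic genes the gap between the lowest KO and the highest WT value was 0.011 to 0.23, with a median of 0.076, and under 0.1 for 7 of the 11. Such narrow gaps were not particular to them. Over all genes 2687 were parted upward and 2530 downward, with a median gap of 0.079, and 2973 of these had a gap under 0.1. In bulk RNA, more dividing cells and more of these transcripts per cell cannot be told apart.

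Among the replication genes, the clamp gene Pcna and the helicase genes Mcm3 and Mcm4 had the lowest p, and Rrm1 had the largest difference. Pcna encodes the ring that holds DNA polymerases on their template. It read -0.08, -0.18 and -0.23 in Dicer WT, in replicate order, and 0.08, 0.18 and 0.36 in Dicer KO. Every KO array lay above every WT array, and the rise was 1.29-fold (log2 0.37 ± 0.08 SE, n = 3 per genotype, limma adjusted p = 0.0334). Its 2 array rows gave nearly the same difference, 0.371 and 0.374. The call held without Dicer KO 1 (adjusted p = 0.0298) and was lost when any of the other arrays, Dicer WT 1, 2 or 3 or Dicer KO 2 or 3, was left out (adjusted p 0.0575 to 0.105). Without both Dicer WT 1 and Dicer WT 3 it was 0.242.

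The MCM genes encode the 6 subunits of 1 helicase ring, yet their differences ranged from -0.0011 to 0.54, and 0 of them passed the test in limma. Mcm3 read -0.25, -0.05 and -0.27 in Dicer WT and 0.05, 0.41 and 0.59 in Dicer KO. Its arrays did not overlap, and its difference was 0.54 ± 0.14 (adjusted p = 0.0545). Mcm4 read -0.12, -0.06 and -0.25 in Dicer WT and 0.06, 0.13 and 0.32 in Dicer KO, again without overlap (0.31 ± 0.08, adjusted p = 0.0695). Mcm2 read -0.29, -0.18 and 0.08 in Dicer WT and -0.08, 0.17 and 0.18 in Dicer KO. Here Dicer WT 3 lay above Dicer KO 1, and the difference was 0.22 ± 0.11 (adjusted p = 0.338). Mcm7 and Mcm5 differed by 0.22 ± 0.12 and 0.15 ± 0.11, also with overlap. Mcm6 read 0.04, 0.38 and -0.35 in Dicer WT and -0.26, -0.04 and 0.36 in Dicer KO. It thus varied more within each genotype than any other subunit, with a WT array on top, and its 95% interval ran from -0.50 to 0.50.

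Enzymes that supply nucleotides for DNA synthesis had unlike differences. Rrm1 and Rrm2 encode the large and small subunits of ribonucleotide reductase, which makes deoxyribonucleotides. Rrm1 read -0.45, -0.17 and 0.0014 in Dicer WT and -0.0014, 0.35 and 0.74 in Dicer KO. The genotypes touched at Dicer WT 3 and Dicer KO 1, and the difference was 0.57 ± 0.19 (limma adjusted p = 0.133). Rrm2 read 0.06, -0.28 and -0.08 in Dicer WT and -0.06, 0.08 and 0.53 in Dicer KO. Only 1 KO array stood clear of the WT range by more than 0.1, and the difference was 0.29 ± 0.16 (adjusted p = 0.369). Tyms, which makes thymidylate, and Tk1, which salvages thymidine, differed by -0.07 ± 0.12 and 0.10 ± 0.08. Tyms was lower on Dicer KO 1 and Dicer KO 2 than on any WT array, at -0.22 and -0.15, and highest on Dicer KO 3, at 0.24.

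The remaining replication genes prepare origins or follow the fork. Gins2, a subunit of the GINS complex that helps the helicase fire, read -0.12, 0.0052 and -0.21 in Dicer WT and 0.11, -0.0052 and 0.10 in Dicer KO. Its KO arrays were close together, with Dicer KO 3 no higher than Dicer KO 1, and the difference was 0.18 ± 0.07 (limma adjusted p = 0.194). Cdc6, which loads the helicase at origins, read -0.19, 0.10 and -0.06 in Dicer WT and -0.24, 0.06 and 0.17 in Dicer KO. The genotypes were interleaved, and the difference was 0.04 ± 0.12 (adjusted p = 0.897). Chek1, the checkpoint kinase that guards stalled forks, differed by 0.29 ± 0.16. Uhrf1, which brings the maintenance DNA methyltransferase to newly copied DNA, differed by 0.12 ± 0.20. The 3 WT arrays of Uhrf1 lay between -0.012 and 0.021, while Dicer KO 1 and Dicer KO 2 were at -0.21 and -0.05 and Dicer KO 3 at 0.63.

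**Figure D3:**
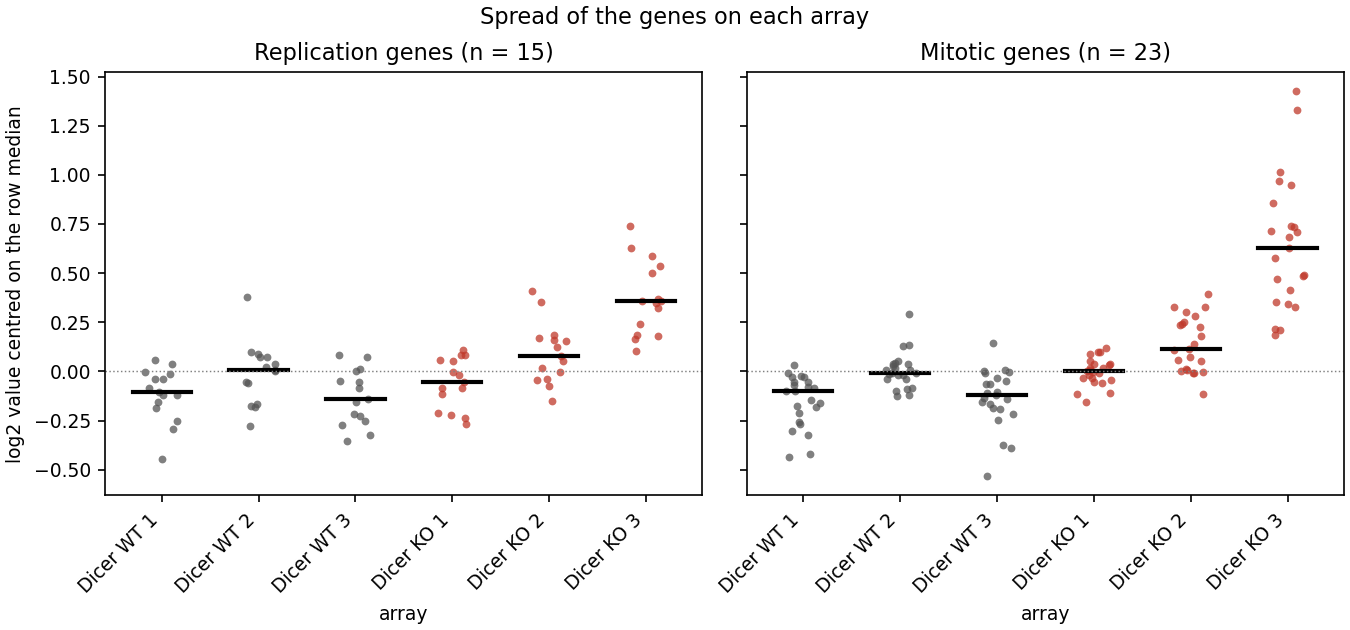
Each point is a gene, plotted by its log2 value centred on the row median (vertical axis) on each array (horizontal axis), with Dicer WT in grey and Dicer KO in red, and the black bars are medians over the genes. The bar of Dicer KO 3 lies at 0.36 for replication genes and 0.63 for mitotic genes, above the other 5 arrays.

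The mitotic genes with the largest differences encode cyclins, spindle proteins and the topoisomerase Top2a, and 0 of the 23 passed the test in limma, with a lowest adjusted p of 0.0857. Ccna2, the cyclin of S phase and G2, had the largest difference on the list. It read -0.42, -0.12 and -0.19 in Dicer WT and 0.12, 0.24 and 1.42 in Dicer KO. Every KO array lay above every WT array, the KO values were spread widely (SD 0.72, n = 3), and the difference of 0.84 ± 0.32 had a limma adjusted p of 0.184. Ccnb2, a B-type cyclin, read -0.27, -0.04 and -0.12 in Dicer WT and 0.04, 0.24 and 0.86 in Dicer KO. The pattern was the same at a smaller size (0.52 ± 0.20, adjusted p = 0.172). Cdk1, the kinase that both cyclins activate, differed by 0.15 ± 0.17. Its first 5 arrays lay between -0.12 and 0.04 and Dicer KO 3 at 0.58.

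Motors and microtubule-binding proteins of the spindle included the mitotic gene of lowest p, Kif11, and genes with differences near 0. Kif11, the motor that pushes the spindle poles apart, read -0.30, -0.09 and -0.39 in Dicer WT and 0.09, 0.33 and 0.95 in Dicer KO. Its genotypes were parted by a gap of 0.18, and the difference was 0.72 ± 0.21 (limma adjusted p = 0.0857). Prc1, which bundles the microtubules of the spindle midzone, read -0.10, -0.13 and -0.16 in Dicer WT and 0.10, 0.39 and 0.97 in Dicer KO. The WT arrays of Prc1 were nearly alike (SD 0.029, n = 3) and its KO arrays were not (SD 0.44, n = 3), with a difference of 0.61 ± 0.20 (adjusted p = 0.114). Tpx2, which activates Aurora A on the spindle, had still tighter WT values, from -0.10 to -0.098, and KO values of 0.098, 0.25 and 1.33 (0.66 ± 0.29, adjusted p = 0.255). Nusap1, a spindle microtubule stabiliser, and Kif20a, a motor of cytokinesis, differed by 0.27 ± 0.11 and 0.30 ± 0.18. The kinetochore proteins Cenpf and Cenpe differed by 0.06 ± 0.09 and -0.0073 ± 0.095. For Cenpe the 95% interval ran from -0.23 to 0.22, which leaves room for a moderate change in either direction.

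Genes of mitotic chromosome structure followed the cyclins. Ncapg, a subunit of condensin I, read -0.32, -0.02 and -0.13 in Dicer WT and 0.02, 0.14 and 0.63 in Dicer KO. The gap between genotypes was 0.04, and the difference was 0.42 ± 0.16 (limma adjusted p = 0.178). Mki67, the proliferation marker that coats mitotic chromosomes, read -0.44, 0.05 and -0.53 in Dicer WT and 0.0048, -0.0048 and 0.49 in Dicer KO. Dicer WT 2 lay above Dicer KO 1 and Dicer KO 2, so the difference of 0.47 ± 0.19 (adjusted p = 0.201) rests on Dicer WT 1, Dicer WT 3 and Dicer KO 3. Top2a, the topoisomerase that untangles sister chromatids, differed by 0.69 ± 0.23 (adjusted p = 0.133), but its 2 array rows disagreed in size. The first row read -0.51, -0.08 and -0.71 in Dicer WT and 0.08, 0.56 and 1.70 in Dicer KO, a difference of 1.21. The second read -0.0078, 0.0039 and -0.037 in Dicer WT and -0.0039, 0.10 and 0.33 in Dicer KO, a difference of 0.16. The order of Dicer KO 2 and Dicer KO 3 was the same on both rows, and averaging them understates the first.

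Kinases and regulators of chromosome segregation showed differences from 0.0003 to 0.42. Bub1b, the BUBR1 protein of the spindle checkpoint, read -0.21, -0.08 and -0.03 in Dicer WT and 0.03, 0.18 and 0.71 in Dicer KO. All 3 KO values were above the WT values, by a gap of 0.064 (0.42 ± 0.16, limma adjusted p = 0.196). Birc5, the survivin subunit of the chromosomal passenger complex, read -0.18, -0.0055 and -0.19 in Dicer WT and 0.0055, 0.07 and 0.35 in Dicer KO. Its genotypes were parted by a gap of 0.011 and differed by 0.27 ± 0.10 (adjusted p = 0.174). The passenger complex's kinase Aurkb and its borealin subunit Cdca8 differed by 0.39 ± 0.17 and 0.12 ± 0.12. The checkpoint kinase Bub1, the polo kinase Plk1 and the kinase Melk differed by 0.35 ± 0.16, 0.37 ± 0.18 and 0.32 ± 0.13. Aurka, the kinase of the spindle poles, differed by 0.02 ± 0.14, with Dicer WT 2 at 0.29 beside Dicer KO 3 at 0.33. The anaphase-promoting complex marks cyclins for destruction, and its activator Cdc20 and its ubiquitin-conjugating enzyme Ube2c differed by 0.22 ± 0.14 and 0.0003 ± 0.084. Ube2c was nevertheless highest on Dicer KO 3, at 0.21, with Dicer WT 3 next at 0.14.

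The size of these differences rested on Dicer KO 3 to a large part. Dicer KO 3 exceeded the mean of the other two KO arrays by a median of 0.56 over the mitotic genes and 0.35 over the replication genes, against 0.012 over all genes. The excess was above 0.5 for 13 of 23 mitotic and 5 of 15 replication genes and for 96 of all 19935 genes. It was largest for Ccna2 (1.25) and Tpx2 (1.15) and smallest for Gins2 (0.050). Without Dicer KO 3, the median difference was 0.16 for mitotic and 0.11 for replication genes, 18 of 23 and 11 of 15 differences stayed above 0, and 0 of the 38 genes passed in limma, against 7.1% of all genes. At an unadjusted p under 0.05 there were 11 of the 38, against 21.2% of all genes. Of these 11, Tyms alone was lower in Dicer KO (-0.21 ± 0.06). Differences of Mcm6, Tyms, Cdc6 and Uhrf1 among the replication genes, and of Cdk1, Aurka, Cenpe, Cenpf and Ube2c among the mitotic genes, were then below 0. The lowest adjusted p without that array were those of Pcna (0.0575), Tpx2 (0.0615), Kif11 (0.065), Ccna2 (0.0663) and Prc1 (0.0716), and their differences were 0.30, 0.27, 0.47, 0.42 and 0.37. Without Dicer KO 1, the KO array nearest to the WT arrays, 5 genes passed instead, all upward, and all 38 differences were above 0. The 5 were Mcm3, Pcna, Prc1, Kif11 and Rrm1 (limma adjusted p 0.0132 to 0.0486). In that fit 6.63% of all genes passed in either direction, and 955 of 19935 passed upward. The SD over replicates was larger in Dicer KO than in Dicer WT for 34 of the 38 genes (89.5%), against 48.6% of all genes.

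**Figure D4:**
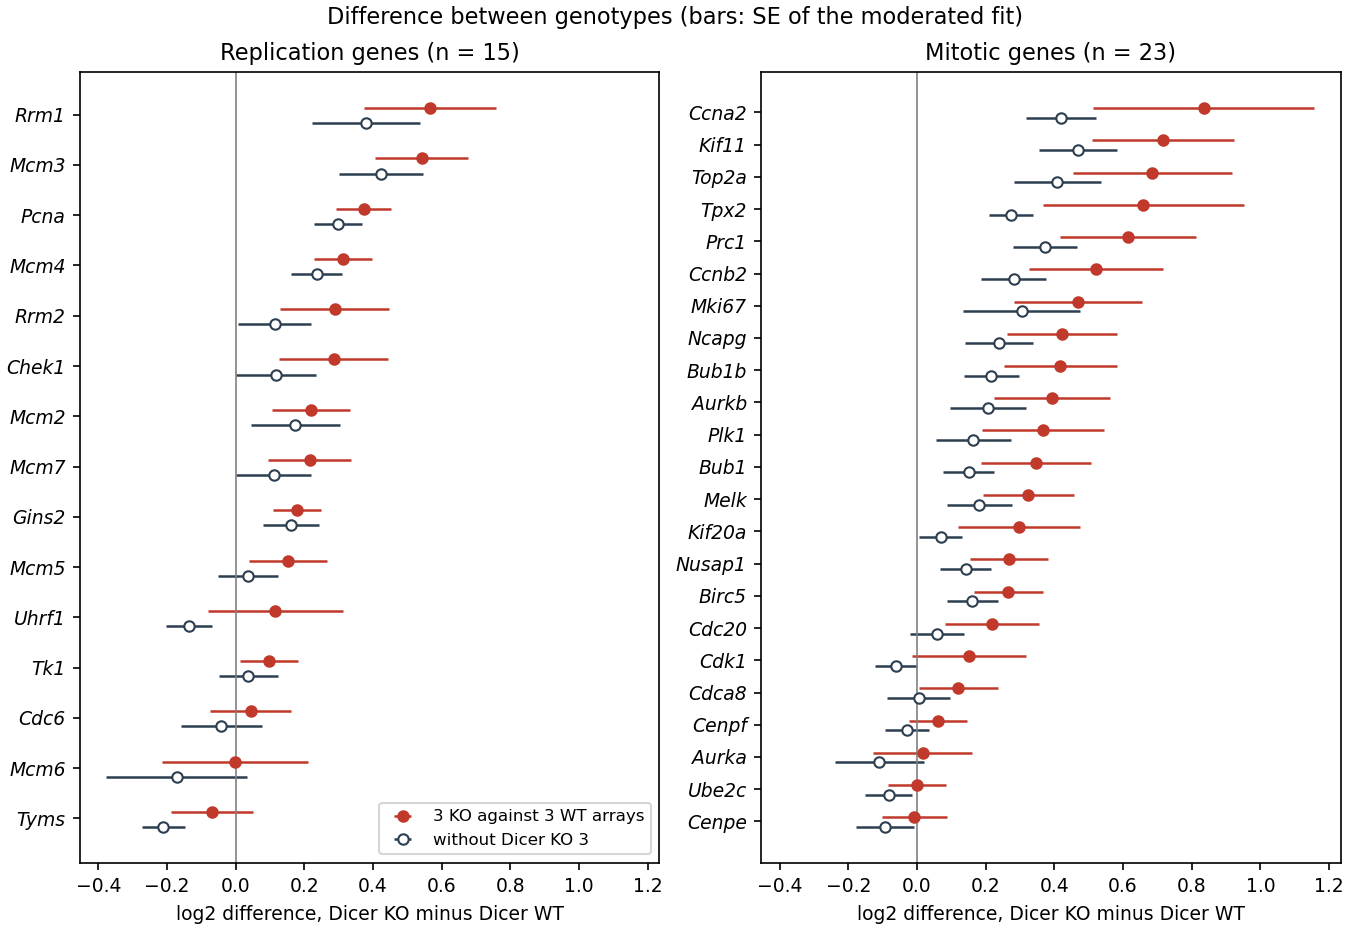
The difference between genotypes, KO minus WT on the log2 scale (horizontal axis), is plotted for each gene with the SE of the moderated fit, from all 6 arrays (filled) and without Dicer KO 3 (open). The open points lie left of the filled points for all 38 genes drawn, and Kif11, Mcm3 and Ccna2 keep the largest differences without that array.

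Genes with and without the motifs were spread over the range of differences. Among replication genes with a promoter in the table, the 6 with an E2F motif had a median difference of 0.13 and the 7 without had 0.29. Among mitotic genes, the 15 with a CHR motif had a median difference of 0.37, from 0.0003 to 0.72, and the 4 measured without had 0.27, from -0.0073 to 0.32. In the sequences shown, Kif11 and Ube2c each carry a CHR motif in the same orientation at -19 and -29 from the start site, and they stand near the top and the bottom of the mitotic differences. Mcm3 and Mcm6 both carry E2F motifs, and they are at the top and the bottom of the MCM ring. No test was made of these splits.

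Other genes of the same processes had smaller median differences. The counts called in these further lists are to be read against the 5.94% of all genes that passed upward and the 2.79% that passed downward. Those shares take no account of signal level, in which the lists differed, as given below. Of 48 measured further DNA replication genes, 2 passed upward and 1 downward in limma, with a median difference of 0.083. Pold3, a subunit of DNA polymerase delta, rose by 0.55 ± 0.08 (adjusted p = 0.00685), and this call held without any 1 array (adjusted p 0.0113 to 0.036) and was lost without both Dicer WT 1 and Dicer WT 3 (0.114). Lig1, the ligase that seals Okazaki fragments, rose by 0.43 ± 0.10 (adjusted p = 0.0443), and Cdc7, the kinase that triggers origin firing, changed by -0.41 ± 0.08 (adjusted p = 0.0245). Of 55 measured further mitosis genes, 2 passed upward and 1 downward, with a median difference of 0.16. The spindle checkpoint kinase gene Ttk and the CDK-binding protein gene Cks2 rose by 0.22 ± 0.05 and 0.33 ± 0.08 (adjusted p 0.0298 and 0.0467), while Mybl2, which encodes B-MYB, changed by -0.37 ± 0.08 (adjusted p = 0.0374). Lig1 kept its call without Dicer KO 1 alone among the fits that left out 1 array, Cdc7 kept it without Dicer WT 3 or Dicer KO 3, and Ttk, Cks2 and Mybl2 lost it without any 1 array. Dicer KO 3 was the highest array for 43 of the 55 mitosis genes and 24 of the 48 replication genes.

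Genes that start or restrain the cycle were also read, against the same 5.94% of all genes that passed upward and 2.79% that passed downward. Signal level is again left out of these shares, and its classes are given below. Of 16 G1 cyclin, kinase and E2F genes, Ccnd2 and Cdk6, the cyclin and kinase of early G1, passed upward by 0.93 ± 0.08 and 0.54 ± 0.10 (limma adjusted p 0.00159 and 0.0179), and 0 passed downward. Leaving out Dicer WT 2, Dicer KO 1 or Dicer KO 3 ended the call of Cdk6, at adjusted p of 0.0573, 0.0529 and 0.0527. Of 15 measured cell cycle inhibitor and quiescence genes, 4 passed upward and 1 downward. Rbl1, the pocket protein p107, rose by 0.68 ± 0.05 (adjusted p = 0.000904), read -0.31, -0.36 and -0.34 in Dicer WT and 0.40, 0.31 and 0.34 in Dicer KO, and so did not single out Dicer KO 3. The antiproliferative genes Btg1 and Btg2 rose by 0.63 ± 0.09 and 0.69 ± 0.06 (adjusted p 0.00743 and 0.00182). The CDK inhibitor gene Cdkn1b rose by 0.41 ± 0.10 (adjusted p = 0.0461), a call that held only without Dicer WT 3 among the fits that left out 1 array. Cdkn2b changed by -0.23 ± 0.05 (adjusted p = 0.0304) and was not called without any 1 array. With Dicer WT 1 and Dicer WT 3 both left out, Rbl1 and Btg2 kept their calls (adjusted p 0.037 and 0.0348), while Btg1 (0.153) and Ccnd2 (0.0537) did not. Dicer KO 3 was the highest array for 12 of the 16 G1 cyclin, kinase and E2F genes and 4 of the 15 inhibitor and quiescence genes, against 18.6% of all genes.

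The row of Dicer1 did not check the genotypes. It read 0.12, 0.02 and -0.10 in Dicer WT and 0.21, -0.02 and -0.09 in Dicer KO, and whether its probes lie in the deleted part is not known here. The binary step of the deposited numbers gives a coarse level class, and 9 of 10 CD4 T cell markers but 1 of 11 B cell and 0 of 8 myeloid markers were in the higher class, which held 16.4% of all genes. Of the S phase and mitosis genes, Pcna and Aurka were in it. So were 9 of 15 inhibitor and quiescence genes, 4 of 16 G1 genes, 5 of 48 further replication genes and 4 of 55 further mitosis genes. In a fit of rows of that class alone, 867 of 3501 genes passed upward in limma, a larger share than the 5.94% over all genes. Counts called in lists that differ in this class are therefore not on an equal footing. All 11 B cell markers had a difference above 0, with a median of 0.33. Of them, 8 had an unadjusted p under 0.05 in limma, where 12.1% of all genes did so upward. The array medians of the 11 were -0.56, 0.015 and -0.22 in Dicer WT and 0.16, 0.079 and 0.093 in Dicer KO. Those markers were thus low on Dicer WT 1 and Dicer WT 3, as the mitotic genes were to a lesser degree, and they were no higher on Dicer KO 3 than on Dicer KO 1. With those WT arrays left out together, an alternative added after seeing the data, the median differences were 0.27 for mitotic and 0.10 for replication genes, with 0 of 38 called and 1 at an unadjusted p under 0.05, against 1.07% and 14.8% of all genes. Medians of the 4 germinal centre B cell, 6 plasma cell, 8 myeloid and 5 NK cell markers on Dicer KO 3 were -0.031, 0.046, 0.069 and 0.036. Of these markers Bank1 of B cells, Lyz2 and Mpeg1 of myeloid cells and Dntt of thymocytes passed upward (0.71, 0.69, 0.96 and 2.54), as did 5.94% of all genes. Differences were below 0 for 4 of the 8 myeloid and 3 of the 5 double positive thymocyte markers. Among the 10 CD4 T cell markers, Cd4 and Cd2 passed upward and Cd5 downward (0.67, 0.57 and -0.44). The part of other cells in the result was not tested beyond these values.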

How the data were processed

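Transcripts of 6 sorted T cell samples were measured on arrays, and the authors deposited 1 table of 28815 rows by 6 arrays, read here as log2 values. The submitters' processing notes name MAS5 without a version or role, and nothing used here states the normalization or the log base. Every row was centred on its median (largest absolute row median 5e-07), so no levels were available beyond the coarse level class described below. No rows were left out of the main fit as dim. Of the rows, 21780 had 1 gene symbol and were averaged to 19935 genes, with symbols updated by gene ID to RefSeq GRCm38.p6 for 21689 rows. The 1605 rows of several symbols and the 5430 unnamed ones were not used.

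Dicer KO was compared with Dicer WT in limma 3.58.1 (R 4.3.3; lmFit, eBayes), 3 against 3 arrays, Benjamini-Hochberg adjusted over all genes at 0.05. Differences carry the SE of the moderated fit. The number of arrays limits the precision. The fit was tested on simulated data. Members of the list with values on every array are the member past the threshold, the 6 replication and 8 mitotic genes of lowest p, and Mki67, Top2a, Mcm2, Rrm2 and Cdc6. Of each further list, up to 5 called members by lowest p are named. Dicer1 is given as the targeted gene. The array values of Mcm6, Tpx2, Uhrf1 and Rbl1 and single array values of others were chosen after they were seen. The members and lists were chosen with earlier results of these data known. Alternatives were a replicate block, each replicate left out, array centring, genes of 1 row, the higher level class, array weights, a robust prior and, added after seeing the data, leaving out Dicer WT 1 and Dicer WT 3. The level class called higher needs all differences between arrays of a row to be multiples of the binary step of numbers of 8 or more, and it can be wrong for single rows. Promoters were searched in RefSeq windows of 300 bases.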

Additional observations from a re-analysis of the deposited data

How the results depend on the processing

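The direction of the median difference of replication and of mitotic genes was kept under every alternative run. With 1 replicate left out these medians ranged from 0.11 to 0.31 and from 0.16 to 0.50, the S phase and mitosis genes called ranged from 0 to 5 and all genes called from 729 to 1597. The genes of the list called numbered 2 with the replicate block (Rrm1 and Mcm3, with Pcna at an adjusted p of 0.0528), 4 with array weights (Pcna, Mcm3, Rrm1 and Mcm4, where 2537 of all genes were called), 0 among genes with 1 row, where Pcna is left out, and 0 when Dicer WT 1 and Dicer WT 3 were left out together. That last fit assumes that the lone WT array varies like the KO arrays, and 213 of all genes were called in it. Among rows of the higher level class 1067 of 3501 genes were called, and that class held too few members for a median.

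Cdc6 differed by -0.042 to 0.16 with 1 replicate left out and by -0.10 without Dicer WT 1 and Dicer WT 3. Dicer1 differed by -0.069 to 0.080 with 1 replicate left out and by -0.029 with array weights. The cause of these changes was not tested. Under array centring 14 replication genes, in place of 13, had a difference above 0, since Mcm6 crossed it. Whether the replicate numbers pair the samples was not settled by these values. Deviations of same-numbered arrays correlated over genes at 0.27, -0.076 and 0.30, in replicate order. Dicer WT 1 and Dicer WT 3 each correlated best with the KO array of the same number, but Dicer WT 2 correlated best with Dicer KO 1 (0.23). The block moved all genes called from 1741 to 2063 and, among the further genes, ended the calls of Ttk, Cks2 and Cdkn2b (adjusted p 0.0534, 0.0775 and 0.0551).

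With 1 replicate left out, the further genes called numbered 1 to 2 for replication, 0 to 2 for mitosis, 3 to 4 for inhibitors and quiescence and 1 to 2 for G1, against 3, 3, 5 and 2 from all arrays. Without Dicer WT 1 and Dicer WT 3 they numbered 0, 0, 2 and 0.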
